A study of Mus musculus with 2 samples.

Results

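Integrins and the proteins that couple them to the actin cytoskeleton were examined for RUNX2 binding in MC3T3-E1, a mouse line of osteoblast precursors. The 34 genes were taken by name from a list and comprised 19 integrin subunit genes (13 alpha and 6 beta) and 15 genes of cytoplasmic adaptors, among 21887 protein-coding genes of the RefSeq annotation of GRCm38 (mm10). The series holds 1 group, untreated cells with no genetic change given in the labels, profiled in 2 replicates by CUT&Tag with a RUNX2 antibody. In this assay a transposase is brought to the antibody and cuts the DNA around the bound protein, so that fragments from those sites can be sequenced. No control library and no expression data were analysed here, so the part of background cutting was not tested and the cell type was not checked against its markers. A peak list was deposited for each replicate, with 26853 peaks in replicate 1 and 27287 in replicate 2, giving the position and width of each peak without height or read number. A region was called shared where peaks of both lists overlapped by at least 1 bp, and it was linked to a gene when any part of it lay inside the gene span or within 10 kb of either end. Nothing in the labels tells if each replicate was a culture of its own, and their differences may be technical.

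An integrin is a pair of 1 alpha and 1 beta subunit that spans the membrane and binds extracellular matrix. Its short cytoplasmic tail is bound by talin and kindlin, which switch the integrin to its active form, and vinculin, alpha-actinin, zyxin and the ILK complex then tie the cluster to actin filaments. FAK, Src, paxillin and p130Cas turn the cluster, called a focal adhesion, into a signalling site. Osteoblast precursors hold on to collagen and fibronectin through such contacts. RUNX2 is the Runt-family factor on which osteoblast differentiation depends.

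Most adaptor genes with a listed promoter had an annotated start inside a shared region, and most such integrin genes did not. In both classes most regions lay farther than 1 kb from either end of the gene, 29 of 39 for adaptors and 22 of 26 for integrins. The table of RefSeq promoters had entries for 26 of the 34 genes, and 11 of these had an annotated start inside a shared region. They were 8 of 11 adaptor genes (Tln1, Ilk, Lims1, Vcl, Actn4, Zyx, Vasp and Lpp) and 3 of 15 integrin genes (Itga1, Itga5 and Itgb1), beside 30.2% of the 17492 protein-coding genes with an entry. In each of the 11 genes a peak of replicate 1 and a peak of replicate 2 both covered the start itself. Genes without an entry were Itga6, Itga7, Itgb3, Itgb4, Tln2, Parva, Ptk2 and Pxn. The members are not replicates of a condition and were chosen with results of these data known, so counts are given without a test.

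The 250 bases before the start are shown for 7 of these genes, to let the covered promoters of the adaptors be read beside those of the main fibronectin receptor, alpha5 beta1. They are RefSeq sequences of build GRCm38.p6, written 5′ to 3′ along the gene's own strand: Itga5 (chr15:103366792-103367041, minus strand), Itgb1 (chr8:128685404-128685653, plus strand), Tln1 (chr4:43562584-43562833, minus strand), Ilk (chr7:105736340-105736589, plus strand), Vcl (chr14:20929148-20929397, plus strand), Actn4 (chr7:28962333-28962582, minus strand) and Zyx (chr6:42349578-42349827, plus strand). Capitals mark letters that match a searched motif on either strand.
Itga5: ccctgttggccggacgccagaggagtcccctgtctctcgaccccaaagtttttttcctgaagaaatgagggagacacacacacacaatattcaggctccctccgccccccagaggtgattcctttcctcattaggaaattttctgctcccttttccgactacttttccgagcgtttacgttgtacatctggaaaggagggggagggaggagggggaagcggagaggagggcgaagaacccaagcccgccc
Itgb1: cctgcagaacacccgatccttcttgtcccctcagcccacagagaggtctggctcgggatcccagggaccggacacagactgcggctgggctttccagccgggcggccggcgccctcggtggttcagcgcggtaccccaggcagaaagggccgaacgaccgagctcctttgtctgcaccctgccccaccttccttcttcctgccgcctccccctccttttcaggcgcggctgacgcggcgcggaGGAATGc
Tln1: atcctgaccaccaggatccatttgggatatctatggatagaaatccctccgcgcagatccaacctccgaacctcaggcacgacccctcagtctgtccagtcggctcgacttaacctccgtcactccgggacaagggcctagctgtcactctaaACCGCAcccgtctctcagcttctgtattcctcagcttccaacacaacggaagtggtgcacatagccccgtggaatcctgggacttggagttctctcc
Ilk: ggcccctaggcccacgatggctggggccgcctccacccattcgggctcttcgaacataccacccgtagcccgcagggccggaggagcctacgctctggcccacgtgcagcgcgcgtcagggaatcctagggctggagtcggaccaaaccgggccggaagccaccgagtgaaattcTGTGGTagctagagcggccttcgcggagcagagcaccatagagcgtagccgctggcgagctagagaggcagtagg
Vcl: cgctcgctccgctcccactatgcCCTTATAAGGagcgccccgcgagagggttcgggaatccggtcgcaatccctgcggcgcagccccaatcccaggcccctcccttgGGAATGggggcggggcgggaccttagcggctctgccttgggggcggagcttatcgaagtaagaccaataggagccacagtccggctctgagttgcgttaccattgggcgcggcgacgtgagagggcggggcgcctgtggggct
Actn4: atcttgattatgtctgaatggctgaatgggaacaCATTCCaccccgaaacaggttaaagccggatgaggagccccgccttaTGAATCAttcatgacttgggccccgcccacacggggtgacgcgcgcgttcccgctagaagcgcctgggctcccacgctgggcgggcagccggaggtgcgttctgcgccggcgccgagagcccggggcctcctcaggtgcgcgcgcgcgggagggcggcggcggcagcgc
Zyx: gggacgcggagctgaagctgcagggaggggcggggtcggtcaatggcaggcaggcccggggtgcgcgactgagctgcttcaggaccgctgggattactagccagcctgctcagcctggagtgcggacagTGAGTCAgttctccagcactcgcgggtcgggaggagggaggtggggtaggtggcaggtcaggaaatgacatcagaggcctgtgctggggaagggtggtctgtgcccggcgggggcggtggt

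All 250 bases lay inside the shared region for Itgb1, Tln1, Ilk, Vcl, Actn4 and Zyx, as they did for Lims1 and Lpp. The shared region covered 219 of the 250 bases at Itga1, 176 at Itga5 and 86 at Vasp. The motifs searched on both strands were TGTGGT or TGCGGT for RUNX, TGANTCA for AP-1 and GGAATG for TEAD, and the CArG box bound by serum response factor was added after the sequences had been seen. No match overlapped another in these promoters.

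RUNX letters stood in 2 of the 11 member promoters with a covered start. They began 97 bases before the start in Tln1 and 75 bases before it in Ilk. The share was 17.7% of all 21263 promoter windows of protein-coding genes and 18.8% of the 5908 whose start lay in a shared region. With 11 member windows it cannot be told whether the frequencies are alike, and this was not tested. AP-1 letters stood in Actn4 (169 bases before the start) and Zyx (121 bases), beside 6.13% and 3.91% of the same windows. TEAD letters stood in Itgb1 (7 bases), Vcl (143 bases) and Actn4 (216 bases), beside 11.7% and 9.63%. A CArG box began 227 bases before the start of Vcl, beside 1.39% and 1.13%. Itga1, Itga5, Lims1, Vasp and Lpp matched none of the 4 motifs in the window of their covered start. Of the 22 member windows whose start lay outside shared regions, 4 held RUNX letters, 0 AP-1, 2 TEAD and 2 a CArG box. These RUNX windows include that of a second Ilk start, with the letters 210 bases before it. They are the same letters as those counted above for Ilk, and they lie inside its shared region. These matches describe letters only.

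Across the whole gene windows, 26 of the 34 genes (76.5%) were linked to at least 1 shared region, and 65 regions were linked in all. The share over all protein-coding genes was 52.8%. The adaptors reached 14 of 15 genes and 39 regions, and the integrins 12 of 19 genes and 26 regions. The members were long genes, with a median span of 71.5 kb against 17.2 kb for all protein-coding genes, and long genes hold regions more often. Of all genes under 30 kb, 46.9% were linked, of those of 30 to 100 kb 63.9%, and of those over 100 kb 64.8%. The integrins were at 4 of 4, 4 of 9 and 4 of 6 in these length classes, and the adaptors at 3 of 3, 5 of 6 and 6 of 6. The integrin share over all lengths was 63.2%. Integrins were above all genes of their length under 30 kb, below them from 30 to 100 kb and near them over 100 kb. Among the adaptors 1 gene, Fermt2, lacked a region.

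The shares of the classes lay farther apart at gene ends, a difference that was not tested. A shared region lay within 1 kb of an own end, start or finish, in 10 of 15 adaptor genes (66.7%) and 4 of 19 integrin genes (21.1%), beside 33.3% of all protein-coding genes. By length class the adaptors were at 3 of 3 genes under 30 kb, 2 of 6 from 30 to 100 kb and 5 of 6 over 100 kb. The integrins were at 2 of 4, 1 of 9 and 1 of 6. All genes of these classes were at 32.3%, 39.7% and 26.1%. The adaptors of 30 to 100 kb were thus below all genes of their length, and the integrins under 30 kb above. Of the 26 integrin regions 22 lay farther than 1 kb from an own end, of which 18 were inside the gene. Of the 39 adaptor regions 29 did, of which 24 were inside the gene. The number of regions per 100 kb of gene and flanks was 1.28 for integrins and 1.73 for adaptors, against 1.29 pooled over all protein-coding genes. This gap depended on the overlap rule. Where peaks had to overlap by at least 50% of each, the integrins kept 23 regions and the adaptors 27 in the same windows.

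**Figure D1:**
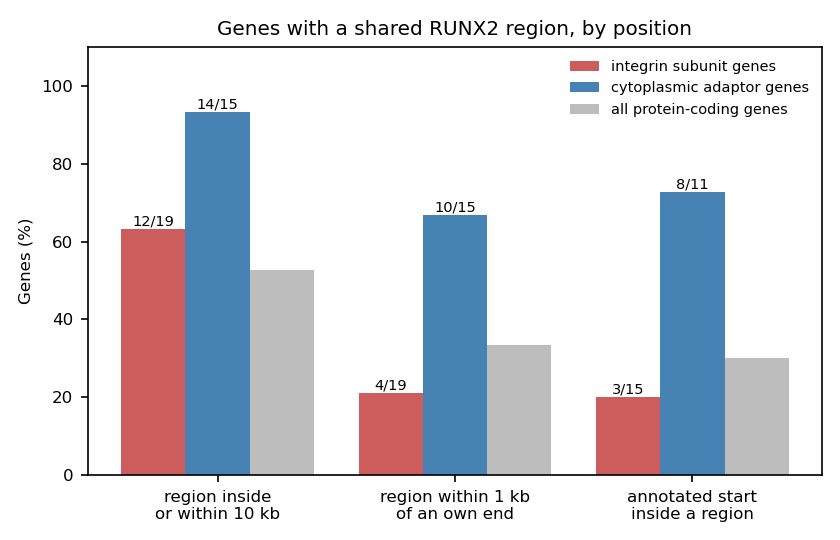
Bars give the percentage of genes with a shared RUNX2 region at 3 kinds of position for 19 integrin subunit genes, 15 cytoplasmic adaptor genes and all protein-coding genes, with the gene counts above the bars of the 2 classes. The adaptor bars stand above the grey bars at all 3 positions, and the integrin bars stand below them at gene ends and starts.

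Collagen-binding alpha subunits differed from gene to gene. Itga11, the alpha chain of the fibrillar collagen receptor of mesenchymal cells (chromosome 9, 62677855 to 62783979), held 3 shared regions, 6310, 34539 and 46093 bp downstream of its start. The widest of them (62723948 to 62724781) measured 504 bp in replicate 1 and 834 bp in replicate 2. At the middle one the replicates differed most, with 221 bp in replicate 1 and 659 bp in replicate 2. Itga1, whose product binds collagen IV and other collagens, had a single region, and it covered the start (chromosome 13, 115101786 to 115102183), measuring 398 bp in replicate 1 and 216 bp in replicate 2. Of the 2 regions of Itga10, a collagen receptor chain of cartilage, one lay 616 bp inside its far end, with widths of 300 and 373 bp. Itga2, the collagen receptor chain of platelets and epithelia, had none, and its nearest shared region was 14162 bp away.

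No shared region lay inside a gene of the laminin-binding alpha subunits. The region linked to Itga3 (chromosome 11, 95041256 to 95041865, 469 and 610 bp wide) lay 2610 bp beyond the finish of the gene and covered the start of Pdk2, a kinase gene of pyruvate metabolism. The one linked to Itga7, the laminin receptor chain of muscle, was 9830 bp from the gene and covered the start of Bloc1s1. Itga6, which pairs with beta4 in hemidesmosomes, had 2 peaks of replicate 2 and none of replicate 1.

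Among the subunits that recognise the RGD motif of fibronectin and vitronectin, Itga5, Itgav and Itga2b were linked and Itga8 was not. Itga5, the alpha chain of the fibronectin receptor (chromosome 15, 103344286 to 103366791), had its 1 region over the start, of 256 bp in replicate 1 and 424 bp in replicate 2. Itgav, which pairs with several beta chains (chromosome 2, 83722303 to 83806917), had 3 regions, of which the widest (83713967 to 83714926) lay 9471 bp before the annotated start and measured 960 and 666 bp. The other regions lay 20035 and 34339 bp into the gene, and the last measured 880 bp in replicate 1 and 255 bp in replicate 2. At the Itgav start itself each replicate had a peak, but on opposite sides: the replicate 2 peak ended 33 bp before the first transcribed base and the replicate 1 peak began 28 bp after it, so the pair was not counted as shared.

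Itga2b encodes the platelet chain alphaIIb, a textbook marker of megakaryocytes, and held the widest member region. It lay inside the gene 2238 bp downstream of the start (chromosome 11, 102465762 to 102467645), with 1822 bp in replicate 1 and 1884 bp in replicate 2, and ranked 7 of 18133 shared regions by mean width. A second region, 478 and 409 bp wide, lay 2404 bp from the far end of this gene of 16.6 kb. Itga8, the nephronectin receptor chain, had 4 peaks of replicate 1 and 1 of replicate 2 without overlap, one of them (219 bp, replicate 1) 152 bp before its start. Itga4 and Itga9, related chains that both bind VCAM1, were without shared regions. Itga4 had no peak of either replicate, and its nearest shared region was 270141 bp away. Itga9, at 294 kb the longest integrin gene here, had 1 peak in replicate 1 and 2 in replicate 2, all at different places.

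The beta subunits contained the integrin gene with the most regions. Itgb5, partner of alphav (chromosome 16, 33829665 to 33949338), held 6 shared regions spread from 7074 to 107826 bp downstream of its start and none at the start. The widest, 33922194 to 33923135, measured 884 bp in replicate 1 and 942 bp in replicate 2, and the narrowest 299 and 160 bp. This came to 4.30 regions per 100 kb, and 8 peaks of replicate 1 and 9 of replicate 2 fell in its window. Itgb1, the common partner of most collagen, laminin and fibronectin receptors (chromosome 8, 128685654 to 128733579), had the opposite layout. Its single region (128685357 to 128685966, 467 and 416 bp wide) covered the start, and the 2 other peaks in its window were of replicate 2 alone.

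Itgb3 and Itgb6, which also pair with alphav, held internal regions. Itgb3 had 2, of which the wider (chromosome 11, 104611351 to 104611909, 484 and 559 bp) lay 3351 bp from the low end of the gene. The replicates otherwise differed at Itgb3, with 2 further peaks in replicate 1 and 4 in replicate 2. Itgb6, known as an epithelial subunit, had 3 regions of 495 and 414 bp, 809 and 613 bp, and 898 and 581 bp in replicates 1 and 2. Its first start had a replicate 2 peak 54 bp before it and no replicate 1 peak within 21579 bp. Itgb4, the hemidesmosome chain, and Itgb8, which activates latent TGF-beta, had no shared region, and the nearest lay 15695 and 325510 bp away. A 287 bp peak of replicate 2 alone lay 246 bp before the Itgb8 start.

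**Figure D2:**
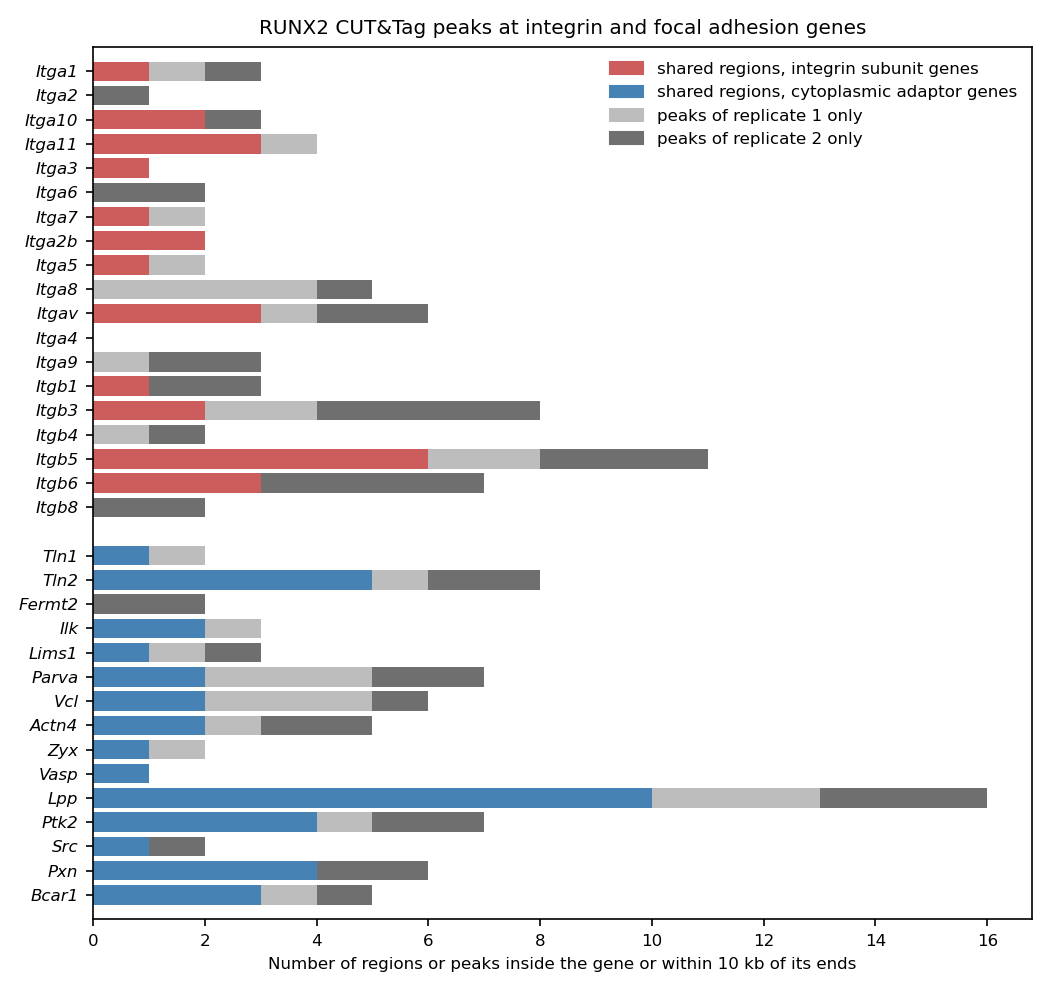
Each bar is 1 gene, and its length counts shared RUNX2 regions (red for integrin subunit genes, blue for cytoplasmic adaptor genes), then peaks of replicate 1 only (light grey) and of replicate 2 only (dark grey) inside the gene or within 10 kb. Lpp has 10 shared regions and Itgb5 has 6, Itga4 has no peak, and Fermt2 is the 1 adaptor gene without a shared region.

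Of the proteins that bind the beta tail directly, the talin genes were linked and the only kindlin gene among the members, Fermt2, was not. Tln1, the widely expressed talin (chromosome 4, 43531513 to 43562583), had 1 region over its start, of 894 bp in replicate 1 and 601 bp in replicate 2. That region (43562235 to 43563128) also covered the start of Creb3, a transcription factor gene named here after its position was seen, so it cannot be given to Tln1 alone. Tln2, the longer talin gene (chromosome 9, 67217085 to 67634045), held 5 regions, all inside it and at least 11874 bp from either end. Their widths were alike between replicates, from 562 to 729 bp in replicate 1 and from 528 to 741 bp in replicate 2. Fermt2 encodes kindlin-2 and had 2 peaks in replicate 2 and none in replicate 1. One of them, 258 bp wide, lay 263 bp before the annotated start.

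All 3 genes of the ILK, PINCH and parvin complex, which links the beta tail to actin, had a region across an end of the gene. Lims1, encoding PINCH1 (chromosome 10, 58323342 to 58424691), had the widest of the 11 regions over an annotated start, from 58322328 to 58323598, at 1200 bp in replicate 1 and 1270 bp in replicate 2. Parva, encoding alpha-parvin, had one across its low end (chromosome 7, 112427630 to 112428399) of 719 and 768 bp and one 40011 bp inside it of 570 and 726 bp. Ilk, encoding integrin-linked kinase (chromosome 7, 105736590 to 105742925), was the shortest gene here at 6.34 kb and had narrow regions, of 274 and 305 bp at the start and of 280 and 327 bp inside. The start region of Ilk also covered the start of the neighbouring Rrp8, and the internal one lay nearer to an end of Rrp8 than to one of Ilk.

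Every gene of the actin-linked group had a region over its start. Vcl encodes vinculin, which is recruited to stretched talin, and its start region (chromosome 14, 20928998 to 20929431) measured 415 bp in replicate 1 and 434 bp in replicate 2. A narrower one of 254 and 321 bp lay 4919 bp before the start. Zyx encodes the tension-sensitive LIM protein zyxin, and its region (chromosome 6, 42349069 to 42350110) measured 970 and 1042 bp. Actn4, encoding alpha-actinin-4, had 412 and 511 bp at the start and a second region of 453 and 431 bp in the gene, 31058 bp downstream. Vasp encodes an actin-elongating protein that binds zyxin, and its region differed between replicates, with 674 bp in replicate 1 and 249 bp in replicate 2.

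Lpp, a zyxin relative and at 599 kb the longest of the 34 genes (chromosome 16, 24393350 to 24992578), held 10 of the 39 adaptor regions. One covered the first start (24392790 to 24393452) with 561 bp in replicate 1 and 565 bp in replicate 2, and the other 9 lay inside the gene, with midpoints from 54825 to 568160 bp from its start. Counted per length, Lpp was at 1.61 regions per 100 kb, close to the 1.73 of all adaptors and to the 1.77 of the adaptors without Lpp. The highest densities were counted at shorter genes, Ilk at 7.59, Bcar1 at 5.62, Itga2b at 5.47, Itga10 at 5.14 and Pxn at 4.76, followed by Itgb5 at 4.30. Some of these counts, those of Ilk and Pxn among them, include regions that lay nearer to an end of another gene.

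The 4 kinase and scaffold genes were all linked, and in Src and Bcar1, which have promoter entries, no region covered an annotated start. Ptk2 and Pxn have no entry, so their regions are placed from the low and high ends of the gene only. Ptk2, encoding focal adhesion kinase (chromosome 15, 73205102 to 73423820), held 4, and one covered its high end with 700 bp in replicate 1 and 629 bp in replicate 2. The widest (73318379 to 73319313) lay deep inside the gene and measured 659 and 935 bp. Src, encoding the partner kinase (chromosome 2, 157423906 to 157471838), had 1 wide region 22939 bp downstream of its start, from 157447232 to 157448611, with 1380 bp in replicate 1 and 1141 bp in replicate 2. Overlapping peaks of both replicates also lay before the Src start and outside the linking distance, one of 311 bp at 12796 bp in replicate 1 and one of 661 bp at 12768 bp in replicate 2.

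Pxn, the gene of the scaffold paxillin (chromosome 5, 115491970 to 115555987), had 4 regions. The widest lay 1130 bp below its low end (115489452 to 115490840) and measured 1266 bp in replicate 1 and 1389 bp in replicate 2, and it also covered an end of Sirt4. A further region covered the start of Sirt4 and another that of the ribosomal gene Rplp0. The internal Pxn region measured 885 bp in replicate 2, where replicate 1 listed 2 peaks of at most 396 bp. Bcar1, encoding p130Cas (chromosome 8, 111710474 to 111743849), had 3 regions. A narrow one (111732181 to 111732526, 273 and 223 bp) lay 45 bp before its second annotated start. Another, 1852 bp before the first start, measured 1458 bp in replicate 1, where replicate 2 listed 2 narrower peaks of at most 547 bp.

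**Figure D3:**
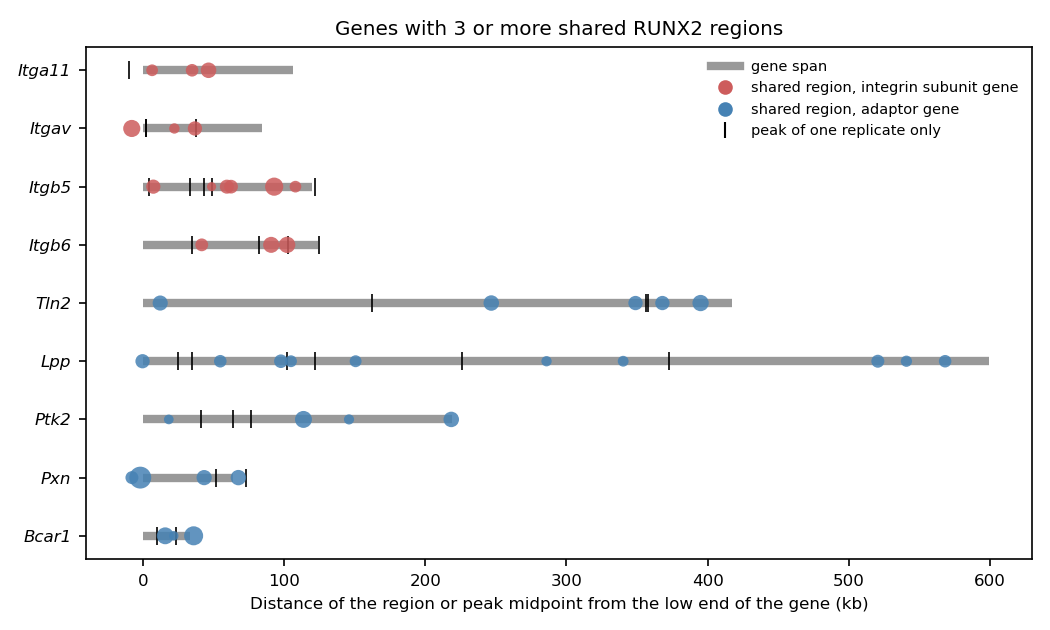
Grey bars are the spans of the 9 genes with 3 or more shared regions, drawn in kb from the end with the lower coordinate. Dots are shared regions, with area in proportion to the mean peak width of both replicates (red integrin, blue adaptor), and black ticks are peaks of one replicate only. Regions of Itgb5, Tln2 and Lpp are spread along the gene, while those of Pxn and Bcar1 include wide ones just outside an end.

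In all, 9 of the 34 genes had 3 or more shared regions, beside 7.32% of all protein-coding genes. The members were also longer, and the part of length in this count was not tested. They were 4 integrin genes (Itga11, Itgav, Itgb5 and Itgb6) and 5 adaptor genes (Tln2, Lpp, Ptk2, Pxn and Bcar1). Over the 65 regions the end of another protein-coding gene was nearer than the member's own in 7, among them those named above at Itga3, Itga7, Ilk and Pxn.

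Region widths of the members were near those of all shared regions. The median was 544 bp in replicate 1 and 497 bp in replicate 2, against 492 and 497 bp over the 18128 shared regions on the assembled chromosomes. It was 481 and 430.5 bp for integrins and 562 and 528 bp for adaptors. Regions at least 1 kb wide in both replicates were 4 of the 65, at Itga2b, Lims1, Src and Pxn, beside 2.71% of all shared regions. In 11 of the 65 the wider peak was over 2 times the narrower, beside 13.7% of all.

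**Figure D4:**
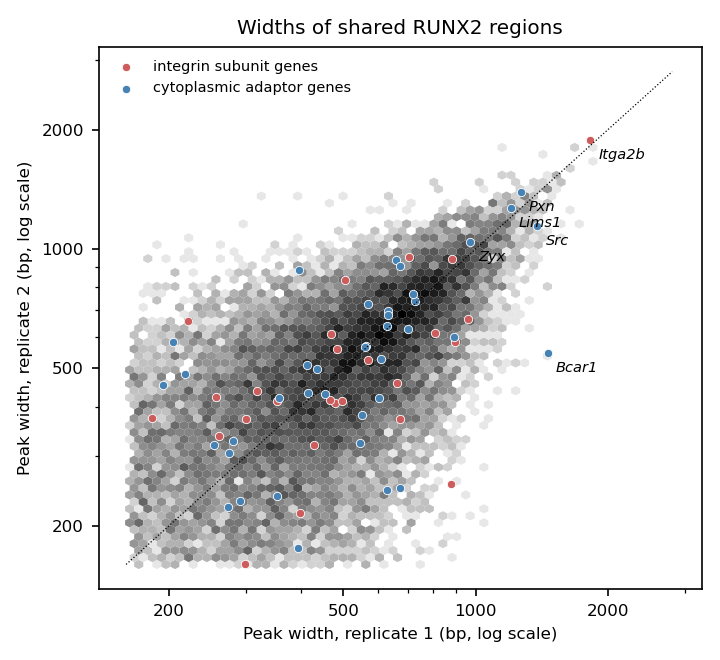
Each point is a shared region linked to a member, with its peak width in replicate 1 on the x axis and in replicate 2 on the y axis, both in bp on log scales. Grey hexagons count all shared regions (darker is more), the dotted line marks equal widths, and the 6 regions of largest mean width are named, Itga2b at 1822 and 1884 bp being the widest.

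The overlap between replicates was lowest for replicate 2 peaks in the integrin windows. Of the peaks in the members' windows, 65 of 97 in replicate 1 (67.0%, 95% Wilson interval 57.2 to 75.6) and 67 of 112 in replicate 2 (59.8%, 50.6 to 68.4) overlapped a peak of the other replicate, beside 68.2% and 67.2% of all peaks. For integrins the shares were 25 of 40 (62.5%, 47.0 to 75.8) and 27 of 53 (50.9%, 37.9 to 63.9), and for adaptors 40 of 57 (70.2%, 57.3 to 80.5) and 40 of 59 (67.8%, 55.1 to 78.3). These intervals cover counting error only and treat peaks of a gene as independent. Replicate 2 peaks without a partner were most frequent at Itgb3 and Itgb6, with 4 each.

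Other genes of the same machinery were read from lists set up with earlier results of these data known. Of 36 further adhesion adaptors, 31 were linked (86.1%), beside 52.8% of all protein-coding genes and 63.9% of those of 30 to 100 kb. Palld, encoding the actin bundler palladin, led with 8 regions, and Kank1, encoding a talin partner, had 4. A region within 1 kb of an own end was present in 13 of these 36 (36.1%), close to the 33.3% of all genes and below the 10 of 15 of the adaptors described above. An annotated start lay inside a region in 14 of the 30 with a promoter entry (46.7%), above the 30.2% of all genes and below the 8 of 11 of those adaptors, and none of these differences was tested. Of 22 genes of integrin ligands, 17 were linked (77.3%), and Fbn1, the fibrillin gene, had 6 regions and Lamc1, a laminin chain gene, 4. A region lay within 1 kb of an own end in 9 of the 22 (40.9%). An annotated start lay inside a region in 4 of the 14 ligand genes with a promoter entry (28.6%). Of 7 leukocyte integrin genes, 3 were linked (42.9%): Itgb2 with 3 regions, Itgb7 with 1 and Itgae with 1. None of these regions lay within 1 kb of an own end, where 33.3% of all genes had a region. The median span was 41.3 kb for the further adaptors, 42.7 kb for the ligand genes and 35.4 kb for the leukocyte integrins. These medians fall in the class of 30 to 100 kb, and no difference of a list from all genes was tested.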

How the data were processed

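The authors deposited 1 peak list per replicate, each with 5 columns and no header. The values show a running number, chromosome, start, end and width in bp, both ends included. Per the submitters' processing notes, fastp 0.19.6, Bowtie2 and deepTools were used and the build was GRCm38 (mm10). Not given in the sources used here are the peak caller, its threshold and any control. Depth is unknown, and absence of a listed peak does not show absence of binding.

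Peaks of both lists overlapping by at least 1 bp were merged. The number of overlapping peaks was checked against bedtools 2.31.1 and was the same, and merging and linking were tested on simulated data. Gene spans and promoter sequences came from RefSeq GRCm38.p6, on chromosomes 1 to 19, X and Y. Distances run from the nearest edge of a region, and each region's width in a replicate is that of its widest peak there. Where no strand was at hand, ends are called low and high by coordinate. Scripts used Python 3.11.15, pandas 2.3.3 and scipy 1.17.1.

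The members and gene lists were chosen with earlier results of these data known. All members are accounted for. From each further list the 2 genes with the most regions are named, or all linked genes where 5 or fewer were linked. A neighbouring gene is named where a region lay nearer to its end, except for 1 result that is not reported here.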

Additional observations from a re-analysis of the deposited data

How the results depend on the processing

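Of 67 recomputed counts, 57 stayed within 1.5 times the main one. Members with a shared region numbered 21 to 33 over 8 alternatives, integrin genes 9 to 18 and adaptor genes 12 to 15. The share over all genes meanwhile moved from 36.3% to 69.9%. There were 21 members beside 36.3% with only the wide peaks, 33 beside 60.8% without replicate 1 and 31 beside 69.9% at 50 kb. Without replicate 1, 18 of 19 integrin genes and 15 of 15 adaptor genes were linked. Without replicate 2 these numbered 15 and 14, and all genes stood at 60.8% in both cases. With only the peaks above the median width, integrin regions fell to 14 and adaptor regions to 24, and genes with a region within 1 kb of an own end to 9, of which 1 was an integrin (Itgb1) and 8 were adaptors, beside 21% of all genes. Integrin genes with the start in a region then numbered 1 and adaptors 6, beside 19.7%. With 50 kb in place of 10 kb, integrin regions rose to 56 and adaptor regions to 64. With a single replicate, shared or not, integrin regions numbered 40 to 53, adaptor regions 57 to 59, members near an own end 15 to 17 (38.1% to 38.3% of all genes), integrins near an own end 5 to 6, adaptors near an own end 10 to 11, integrins with a covered start 3 and adaptors 8 (30.2%). Without Lpp the adaptor regions numbered 29. With an overlap of at least 50% of both peaks, integrin regions numbered 23 and adaptor regions 27, against 26 and 39 in the main count. The classes were then closer in number of regions, although both counts stayed within 1.5 times the main one. Counts by class near ends and starts, and the one without Lpp, were chosen after the data were seen. No paired analysis was possible because the series has 1 group. Without read numbers the effect of depth on these counts cannot be given.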
